A study of Schizosaccharomyces pombe with 6 samples.

Results

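Ammonium enters fission yeast (*Schizosaccharomyces pombe*) through transporters of the Amt family and is then built into glutamate and glutamine. The 7 genes described here are the 3 ammonium transporter genes amt1, amt2 and amt3, which serve uptake, and 4 enzyme genes of assimilation, gln1, glt1, gdh1 and gdh2. They were chosen by name. Each has 1 probe set that the array's annotation gives to a single *S. pombe* gene, so 7 of 7 listed genes were measured, among 2917 probe sets for 2899 *S. pombe* genes.

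Transcripts were measured on 6 Affymetrix arrays, 3 of wild type cells and 3 of an isp7+ null strain, in which the isp7 gene is missing. The Isp7 protein is a relative of dioxygenases that use 2-oxoglutarate and iron, and the series' title connects it with amino acid uptake and with signalling by the TOR kinase. Both groups grew at 30 °C to mid-log phase in Edinburgh minimal medium with 5 g/L ammonium chloride, so ammonium was the nitrogen source of both. The labels give no mating type, no other marker, no number of independent deletion clones and no age of the cultures beyond the growth phase. They also do not say that the replicates were separate cultures, so each p-value covers only the spread of these arrays, and that spread may be technical.

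Ammonium assimilation runs on a pair of routes. Glutamine synthetase, encoded by gln1, joins ammonium to glutamate, and glutamate synthase, encoded by glt1, passes the amide nitrogen of glutamine to 2-oxoglutarate and so forms glutamate. The NADP-dependent glutamate dehydrogenase, encoded by gdh1, forms glutamate from ammonium and 2-oxoglutarate directly, while the NAD-dependent enzyme, encoded by gdh2, works mainly in the breakdown of glutamate. In yeasts, transporter and enzyme genes of this network respond to the quality of the nitrogen source.

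The labels held for the deleted gene. The mean log2 value of the isp7 probe set was 11.62 ± 0.073 in wild type and 6.19 ± 0.18 in the null (SD, n = 3 each), the latter below the background level of 7.08. That level is percentile 95 of the mean values of the probe sets made for budding yeast (*Saccharomyces cerevisiae*), which share the array. Correlations between arrays were 0.998 to 0.999 within a group and 0.973 to 0.978 between groups. All 7 genes had a mean above background in both groups.

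In the null strain 1 of the 7 genes rose, 3 fell and 3 did neither. The transporter gene amt1 rose, and the transporter gene amt2, the glutamate synthase gene glt1 and the NAD-dependent glutamate dehydrogenase gene gdh2 fell. Uptake and assimilation did not move as blocks: the 3 transporter genes held 1 rise, 1 fall and 1 gene near 0, and the 4 enzyme genes held 2 falls and 2 small increases. A gene is said to have risen or fallen at a limma adjusted p under 0.05 over all *S. pombe* probe sets together with a change of at least 1.5-fold, the thresholds named in the series' design text. Of the 2917 probe sets 8.6% passed that rule, 4.22% as rises and 4.39% as falls. Earlier results of these data were known when the 7 genes were listed, so their count is a description.

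**Figure D1:**
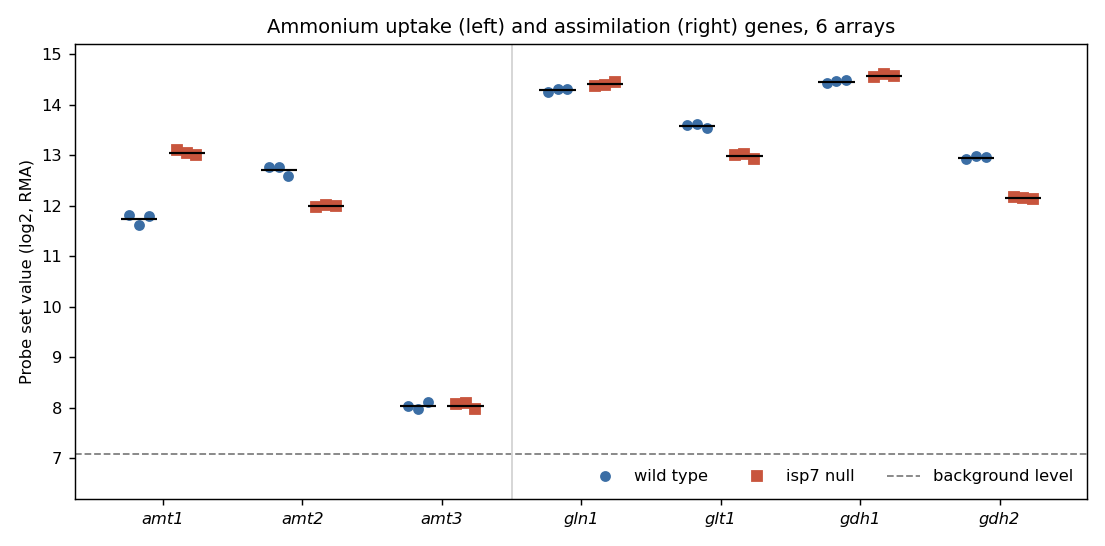
Log2 probe set values (vertical axis) of the 7 genes on each of the 6 arrays, with wild type as circles and isp7 null as squares; horizontal bars are group means (n = 3) and the dashed line is the background level of 7.08. The arrays of amt1 separate upward in the null, those of amt2, glt1 and gdh2 separate downward, and those of amt3 overlap; heights are not comparable between genes.

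The change of amt1 (SPCPB1C11.01) was the largest among the 7. Its log2 values were 11.81, 11.62 and 11.80 in the wild type arrays and 13.10, 13.04 and 13.005 in the null arrays. All 3 null arrays lay above all 3 wild type arrays, with a gap more than 1 log2 unit wide. The means were 11.75 ± 0.11 for wild type and 13.05 ± 0.046 for the null (SD, n = 3 each), a 2.47-fold rise. The log2 change was 1.30 (SE 0.057, 95% interval 1.17 to 1.44, limma adjusted p = 5.46e-06). By size of change regardless of direction amt1 ranked 25 among the 2917 probe sets, and it ranked 20 from the top among increases. It was the only gene of the 7 past 2-fold, a size that 1.68% of the probe sets reached with an adjusted p under 0.05. Each value is an average over a culture, so a larger share of cells with the transcript and more transcript per cell cannot be told apart.

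The second transporter gene, amt2 (SPAC664.14), went the other way. Its log2 values were 12.78, 12.78 and 12.58 in wild type and 11.98, 12.02 and 12.00 in the null. The groups did not overlap, and wild type array 3 was the lowest of its group. The means were 12.71 ± 0.11 (SD, n = 3) and 12.00 ± 0.022 (SD, n = 3), so the level in wild type was 1.64 times that in the null. The log2 change was -0.71 (SE 0.056, 95% interval -0.84 to -0.58, limma adjusted p = 3.58e-05), and amt2 ranked 56 among decreases. Wild type arrays were more spread for amt1 and amt2 (SD 0.11 each) than for the median *S. pombe* probe set (SD 0.038), whereas both null SDs, 0.046 and 0.022, lay near or under the null median of 0.046.

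The third transporter gene, amt3 (SPAC2E1P3.02C), had no detectable change. Its log2 values were 8.04, 7.98 and 8.12 in wild type and 8.07, 8.09 and 7.98 in the null, and the groups overlapped. The log2 change was 0.003 (SE 0.047, limma adjusted p = 0.963), with a 95% interval from -0.11 to 0.11. The interval leaves out a change of 1.5-fold on this scale. The values lie about 1 log2 unit above the background level, where the array compresses differences, so a change of the transcript could be larger than the interval shows.

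Within each array the log2 value of amt1 minus that of amt2 removes any scaling of the whole array. It was -0.96, -1.16 and -0.78 in wild type and 1.12, 1.02 and 1.01 in the null. The order of the 2 probe sets therefore turned in every array, although a probe set's height depends on its own probes and does not say which transcript was the more abundant. The mean difference was -0.97 ± 0.19 for wild type and 1.05 ± 0.059 for the null (SD, n = 3 each), which is a shift of 2.01 log2 units. A two-sided exact permutation test gave p = 0.10, the smallest p that 3 against 3 arrays allow. The groups of amt1 and amt2 were already apart in opposite directions, which fixed this p, so the test adds no support. The 3 proteins are related, and whether a transcript of one amt gene binds to probes of another was not tested.

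**Figure D2:**
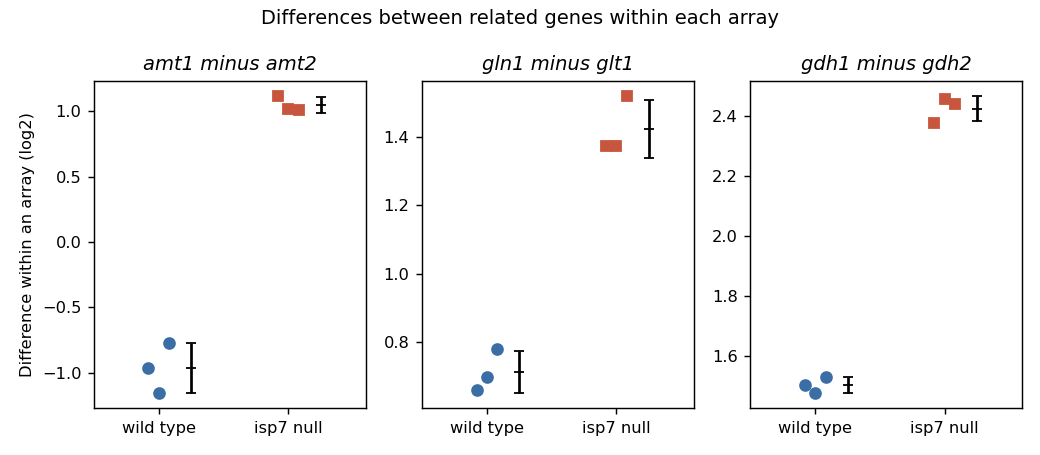
Difference in log2 value between 2 probe sets of the same array (vertical axis, a separate range per panel), for amt1 minus amt2, gln1 minus glt1 and gdh1 minus gdh2; points are arrays, and the bar beside them is the mean with SD (n = 3). In each panel the 3 null arrays lie above the 3 wild type arrays, with shifts of 2.01, 0.71 and 0.92, not corrected for gene length.

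Of the 2 enzymes of the glutamine route, glutamine synthetase and glutamate synthase, only the transcript of the latter passed the rule. For gln1 (SPAC23H4.06) the log2 values were 14.25, 14.31 and 14.31 in wild type and 14.37, 14.39 and 14.45 in the null. The groups did not overlap, but the step was small: the log2 change was 0.11 (SE 0.033, 95% interval 0.033 to 0.19, limma adjusted p = 0.0189), which is 1.08-fold. An adjusted p under 0.05 alone was reached by 70.7% of the probe sets, and groups that do not overlap were seen in 76.1%, so neither sets gln1 apart. The adjusted p was 0.0611 without wild type array 1, 0.0582 without null array 3 and 0.0844 with all probe sets of the array in the fit.

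For glt1 (SPAPB1E7.07) the log2 values were 13.59, 13.61 and 13.53 in wild type and 12.99, 13.02 and 12.93 in the null. All null arrays were lower, and array 3 was the lowest of its group in both. The means were 13.58 ± 0.043 (SD, n = 3) and 12.98 ± 0.045 (SD, n = 3), which gives -0.60 as the log2 change (SE 0.036, 95% interval -0.68 to -0.51, limma adjusted p = 1.29e-05). The level in wild type was 1.51 times that in the null, just past the threshold of 1.5-fold, and the interval runs across it. The fall of glt1 did not reach 1.5-fold with median centring (-0.55), with repeated quantile normalization (-0.58), without wild type array 2 (-0.58) or without null array 3 (-0.57), while the adjusted p stayed under 0.05 in each.

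The length of glt1 moved with this result. At 7545 bases it ranks 20 by length among the 2917 probe sets' genes, and in these arrays longer genes were lower in the null. Among the 365 probe sets of the longest eighth, with 3565 bases or more, the median log2 change was -0.22. In this eighth 31 fell (8.49%, beside 4.39% of all probe sets) and 4 rose. A change as low as that of glt1 or lower was found for 28, glt1 itself included. After subtraction of a straight line on log2 gene length from each array, the log2 change of glt1 was -0.27 (limma adjusted p = 0.00105), past the adjusted p but not 1.5-fold. The same subtraction left amt1 at 1.42, amt2 at -0.64 and gdh2 at -0.63, each still past both thresholds.

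**Figure D3:**
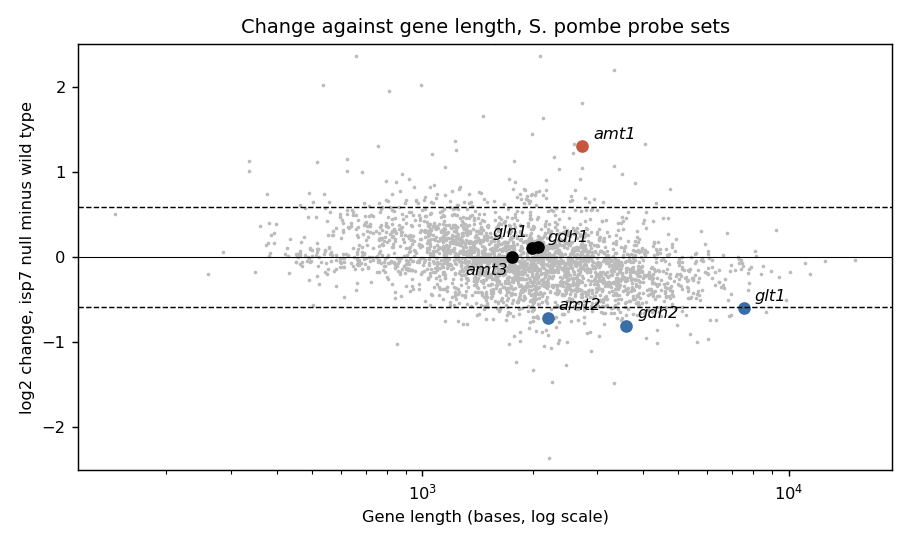
Log2 change in the null (vertical axis) against gene length in bases (horizontal axis, log scale) for the *S. pombe* probe sets in grey, with the 7 genes as large points (red rose, blue fell, black neither); dashed lines mark 1.5-fold, and 7 probe sets lie beyond the vertical range. The cloud slopes downward with length, and glt1 at 7545 bases sits at its long end with a change of -0.60.

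The glutamate dehydrogenase genes separated. For gdh1 (SPCC622.12C), the NADP-dependent enzyme, the log2 values were 14.42, 14.46 and 14.49 in wild type and 14.55, 14.60 and 14.57 in the null. The log2 change was 0.12 (SE 0.031, 95% interval 0.043 to 0.19, limma adjusted p = 0.0115), or 1.08-fold, short of the threshold. With all probe sets of the array in the fit its adjusted p was 0.0639. The values of gln1 and gdh1 lie near the upper end of the array's range, which reached 15.65, where array signals can compress differences. Their intervals therefore describe the array values and set no bound on the transcripts.

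For gdh2 (SPCC132.04C), the NAD-dependent enzyme, the log2 values were 12.92, 12.98 and 12.96 in wild type and 12.17, 12.15 and 12.12 in the null. All null arrays lay below all wild type arrays, and the spread within a group was small. The means were 12.95 ± 0.033 (SD, n = 3) and 12.15 ± 0.023 (SD, n = 3), so the level in wild type was 1.75 times that in the null. The log2 change was -0.81 (SE 0.030, 95% interval -0.88 to -0.74, limma adjusted p = 3.88e-06). It was the deepest fall among the 7 genes, and it ranked 35 among the decreases of all probe sets. With 3607 bases gdh2 also belongs to the longest eighth. After the length correction its change was -0.63, no longer the deepest, beside -0.64 for amt2.

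**Figure D4:**
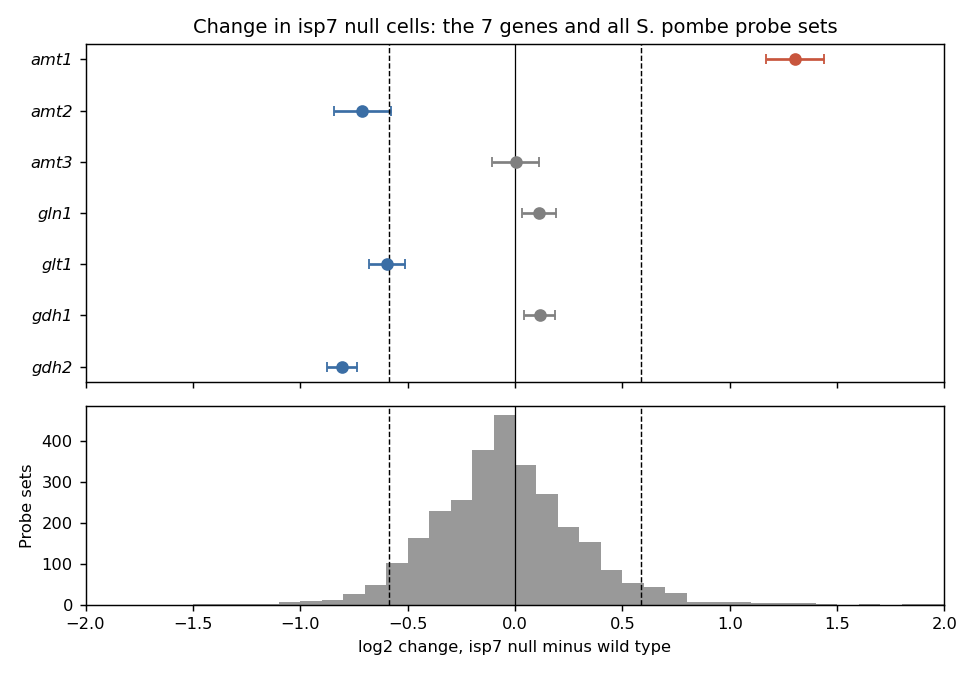
Upper panel: log2 change (isp7 null minus wild type, horizontal axis) of each of the 7 genes with its 95% interval from limma (red rose, blue fell, grey neither). Lower panel: number of *S. pombe* probe sets at each change, in steps of 0.1, with 13 beyond the horizontal range; dashed lines mark 1.5-fold, and amt1 at 1.30 lies far out in the right tail.

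Within arrays, gdh1 minus gdh2 went from 1.50 ± 0.027 (SD, n = 3) for wild type to 2.43 ± 0.042 (SD, n = 3) in the null. The corresponding difference of gln1 minus glt1 went from 0.71 ± 0.062 to 1.42 ± 0.084 (SD, n = 3). Relative to glt1 in the same array gln1 was thus higher by 0.71 log2 units, and relative to gdh2 gdh1 was higher by 0.92. These differences do not remove the slope with gene length. After the length correction the changes were 0.16 for gln1 and -0.27 for glt1, 0.17 for gdh1 and -0.63 for gdh2, so both gaps were narrower. Averaged over role, the 3 uptake genes had log2 values of 10.83 ± 0.042 for wild type and 11.03 ± 0.033 for the null (SD, n = 3). The 4 assimilation genes stood at 13.82 ± 0.022 and 13.53 ± 0.012 (SD, n = 3). The average change was 0.20 for uptake and -0.29 for assimilation. The median over the 7 genes was 0.003, against -0.05 over all *S. pombe* probe sets. These averages hide opposite directions in both roles, so no test was made on them. Among uptake genes amt1 rose and amt2 fell, and among assimilation genes gln1 and gdh1 were slightly higher while glt1 and gdh2 fell. The averages were not corrected for gene length.

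Enzymes that take nitrogen from glutamine, the product of gln1, were lower in the null. Of 11 listed genes 10 had a named probe set. All 10 were lower with an adjusted p under 0.05, 5 of them fell by 1.5-fold, and none rose. Over all *S. pombe* probe sets 41.3% were lower with an adjusted p under 0.05, 29.3% were higher, and 4.39% fell by 1.5-fold. The largest falls were those of trp1 (log2 change -0.97, SE 0.034), which encodes an enzyme of tryptophan synthesis, his4 (-0.88, SE 0.038), of histidine synthesis, and ura1 (-0.69, SE 0.028), of pyrimidine synthesis. The limma adjusted p of each was 5.39e-06 or less. The other falls were those of ade3 (-0.64), of purine synthesis, and cts1 (-0.59), of cytidine nucleotide synthesis. The median of the list was -0.51, and all 10 stayed lower under each of the 3 other scalings (median centring, a repeated quantile normalization, the length correction). After the length correction 2 of the 10, trp1 and his4, fell by 1.5-fold, beside 89 of all 2917 probe sets under that correction.

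Other enzymes that use or form glutamate, or that act in later steps of synthesis from it, were mostly lower, with a smaller median change. Of 13 listed genes 8 had a named probe set, 7 of those were lower with an adjusted p under 0.05, and 1 fell by 1.5-fold, beside 41.3% and 4.39% of all probe sets. The fall was that of pro1, which encodes an enzyme of proline synthesis from glutamate, at -0.65 on the log2 scale (SE 0.035, limma adjusted p = 9.87e-06). The median was -0.31, against -0.05 over all probe sets. The gene that was not lower was arg11, of arginine synthesis, at 0.04 (SE 0.025, limma adjusted p = 0.150). After the length correction arg11 stood at 0.17 (limma adjusted p = 0.00128). With median centring and with the length correction 6 of the 8 were lower and 1 was higher with an adjusted p under 0.05. With repeated quantile normalization 7 were lower and 1 was higher.

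Genes that release ammonium or glutamate from other nitrogen sources were mostly higher. Of 13 listed 9 had a named probe set, 3 rose and none fell, and 7 were higher with an adjusted p under 0.05. Of all probe sets 4.22% rose and 29.3% were higher with an adjusted p under 0.05. The genes cao1 (log2 change 2.19, SE 0.035) and cao2 (1.22, SE 0.045), of the copper amine oxidase family, rose. So did uga1 (0.79, SE 0.044), the gene of the aminotransferase for 4-aminobutyrate. The limma adjusted p of each was 1.08e-05 or less. Copper amine oxidases release ammonium from amines, and whether the products of cao1 and cao2 both do so was not tested. The median of the list was 0.31. The arginase gene aru1 stood at -0.56 (SE 0.098, limma adjusted p = 0.00165), short of 1.5-fold, and passed it after the length correction.

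Enzymes that supply 2-oxoglutarate, the carbon skeleton of both routes, and the rest of the tricarboxylic acid cycle held no called change. Of 19 listed 13 had a named probe set, none rose or fell by 1.5-fold, 4 were higher and 5 lower with an adjusted p under 0.05, and the median was -0.02. These counts are near the background, in which 29.3% of all probe sets were higher and 41.3% lower, with a median of -0.05. The largest change was that of kgd2, which encodes a subunit of 2-oxoglutarate dehydrogenase, at 0.39 (SE 0.041, limma adjusted p = 0.000125). The median turned to 0.02 with median centring and to 0.04 after the length correction. The 4 lists were drawn up with earlier results of these data known, so their counts describe these arrays.

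**Figure D5:**
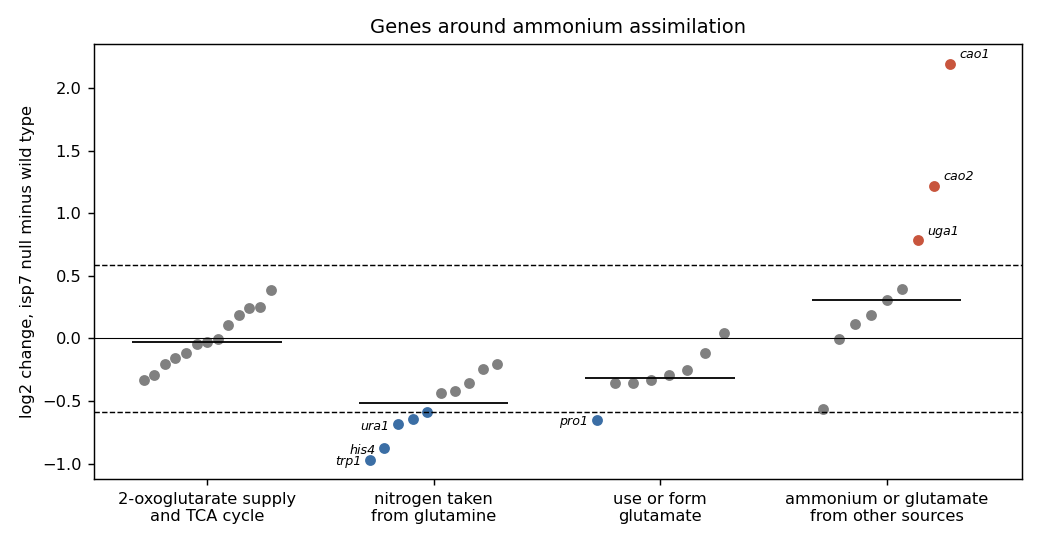
Log2 change (isp7 null minus wild type, vertical axis) of each measured gene in the 4 lists around ammonium assimilation, 1 point per gene (red rose, blue fell, grey neither), with the list's median as a bar and 1.5-fold as dashed lines. All 10 genes that take nitrogen from glutamine lie below 0, with a median of -0.51, and the rises of cao1, cao2 and uga1 stand in the last list.

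The GATA-type transcription factor gene gaf1, whose product acts in nitrogen-regulated transcription, had log2 values of 11.08 ± 0.022 for wild type and 10.85 ± 0.016 for the null (SD, n = 3). Its log2 change was -0.22 (SE 0.027, limma adjusted p = 0.000249), short of 1.5-fold, and 46.9% of the probe sets changed more in size. With 4158 bases gaf1 belongs to the longest eighth of genes, whose median log2 change was also -0.22.

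Genes with the array pattern most like each member that moved were found by the root mean square difference between deviations from each gene's own mean over the 6 arrays. For amt1 they were per1 (0.073), put4 (0.079) and psl1 (0.084), the first a plasma membrane amino acid permease gene and the next the proline permease gene. The log2 changes were 1.17 for per1, 1.44 for put4 and 1.30 for psl1, against 1.30 for amt1. For amt2 they were cbf12 (0.022), a transcription factor gene, tim16 (0.044), of mitochondrial protein import, and oac1 (0.045). For glt1 they were sec62 (0.022), of protein translocation into the endoplasmic reticulum, lys4 (0.023), of lysine synthesis, and trp3 (0.030), of tryptophan synthesis. For gdh2 they were lrs1 (0.028), the gene of a leucyl-tRNA synthetase, pac1 (0.029), of a ribonuclease that cuts double-stranded RNA, and mas5 (0.033), a co-chaperone gene. With 6 arrays in 2 groups this likeness is mostly that of the change between the groups.

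The protein-coding genes directly beside the 7 genes showed no called change where they were measured. Of 14 neighbours 5 had a named probe set, and 0 rose or fell in limma. Over all *S. pombe* probe sets 8.6% did, so with 5 measured this count does not set the neighbours apart. Of these 5, eme1 beside glt1 stood at -0.54 (limma adjusted p = 0.000658) and the measured neighbour of gln1 at -0.10 (limma adjusted p = 0.0147), both short of 1.5-fold. The other measured neighbours, wtf21 beside amt1, mdv1 beside amt2 and tti1 beside gdh1, had limma adjusted p of 0.0794, 0.123 and 0.387.

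The budding yeast probe sets on the array record how *S. pombe* RNA reads on probes made for another species' enzymes of assimilation. Those named GLN1, GLT1, GDH1 and GDH2 had means of 6.59, 6.26, 7.24 and 5.41 in wild type and of 6.55, 6.15, 7.17 and 5.52 in the null, and 1 of these 4, GDH1, lay above the background level. No change was detected in them in a fit over all probe sets, where the limma adjusted p ranged from 0.136 for GLT1 to 0.748 for GLN1.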

How the data were processed

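Total RNA, prepared with hot phenol, was hybridized to arrays. The deposited log2 values, 1 per probe set and array, were made by the authors with RMA in Partek 6.5 per the submitters' processing notes. RMA corrects background, gives all arrays 1 distribution and summarizes probes, which removes changes in total RNA. Array values compress differences near background and saturation. The 10928 probe sets took their names from the platform annotation, updated through the RefSeq table of ASM294v3, used here for names, lengths and neighbours only.

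All 6 columns entered limma 3.58.1 (lmFit, eBayes) in R 4.3.3 over 2917 *S. pombe* probe sets, isp7 null minus wild type, two-sided, with Benjamini-Hochberg adjustment. Errors are SD over arrays or SE of the fit. An array has no read depth; the number of arrays limits precision. The labels name no batch.

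The members and lists were chosen with earlier results of these data known. Named were isp7, gaf1, all members, up to 3 called genes per list (otherwise the largest change) and the 3 most alike genes; list genes outside this rule (ade3, cts1, arg11, aru1) and neighbouring genes were named after their values were seen. A gene with several probe sets is given by the one with the highest mean. Entry car3 was matched to aru1 by its older name. The fitting code was tested on simulated data. Alternatives were other scalings, variance priors, filters, a replicate block, a gene length correction and leaving out arrays. No sequences were used here.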

Additional observations from a re-analysis of the deposited data

How the results depend on the processing

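Across 15 alternatives each, amt1 (log2 change 1.24 to 1.42), amt2 (-0.78 to -0.64) and gdh2 (-0.82 to -0.63) stayed past both thresholds with their direction. The replicate block and the changes of variance estimate or of the probe sets in the fit leave every log2 change as it is. Only the scalings, the length correction and the arrays left out could alter a size or direction. For glt1, 5 of 15 ended the 1.5-fold call, all by size and all among these latter settings. Its change was -0.27 once gene length was corrected for, so that 2 falls remained among the 7 genes. The direction of amt3 turned in 5, at -0.091 with repeated quantile normalization and at -0.0005, -0.031, -0.0098 and -0.019 without wild type array 1, wild type array 2, null array 1 and null array 2 (range over single arrays left out -0.031 to 0.039); its adjusted p was never under 0.118. For gln1 (0.08 to 0.16) and gdh1 (0.08 to 0.17) the direction held and none reached 1.5-fold. Leaving out single arrays moved the shift of amt1 minus amt2 between 1.92 and 2.11, the falls among the 7 between 2 and 3, and all calls between 242 and 273 (251 with all arrays). The split of all calls was 123 rises and 128 falls, against 154 and 94 with median centring, a shift of scale that moved the median of all probe sets by less than 0.05. Same-numbered arrays did not deviate together in every pair (r = -0.12, -0.25 and 0.11), and not every array correlated best with its own number. These values do not show that the numbers pair the arrays, and 3 arrays per group are too few to exclude it. With the replicate block 252 probe sets passed and the 7 genes kept 1 rise and 3 falls.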
